A study of Homo sapiens with 5 samples.

Results

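Latrophilins are adhesion G protein-coupled receptors, and teneurins and FLRT proteins are the ligands they meet on neighbouring cells. This gene group was examined after FAM53C knock-down in RPE-1, a human cell line from retinal pigment epithelium that was immortalized with telomerase. It holds 9 of the 64252 genes in the deposited table: the receptor genes ADGRL1, ADGRL2, ADGRL3 and ADGRL4, the FLRT genes FLRT2 and FLRT3, and the teneurin genes TENM2, TENM3 and TENM4. The group was chosen on the measured fall of ADGRL2 in siFAM53C cells, so that the fall itself is described here and not tested, whereas the other 8 genes entered by family name, as relatives or ligands, with earlier results of these data known. The genotype is labelled WT for siCtrl and FAM53C KD for siFAM53C, and all cells were RPE-1, transfected with Lipofectamine RNAiMAX and collected 48 hr later. The 3 siCtrl libraries received the ON-TARGET Control #1 siRNA and the 2 siFAM53C libraries a pool of siRNAs against FAM53C, at 5 µM in both cases as labelled. It is not stated whether the libraries of a condition came from separate cultures, so p-values measure the spread between these libraries, which may be technical.

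Latrophilin receptors carry lectin-like and olfactomedin-like domains on a long extracellular part, through which they bind teneurins and FLRTs across cell contacts, and they are best known from synapses, where such contacts help to set which neurons connect. Teneurins are very large type II transmembrane proteins, and FLRTs are leucine-rich repeat proteins that also bind UNC5 guidance receptors. ADGRL4 (also known as ELTD1) is grouped with the latrophilins by its membrane-spanning part, carries EGF-like domains in place of the ligand-binding domains of the others, and is known from endothelial cells. In these bulk libraries, fewer cells that express a gene and less RNA per cell cannot be told apart.

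Libraries held from 19260124 to 25615415 counts on genes. FAM53C, the targeted gene, fell from 59.4 ± 1.67 (SD, n = 3) to 18.2 ± 5.73 (SD, n = 2) CPM (counts scaled to a library total of 1e6 with TMM factors), with no overlap between conditions. Of 13 markers of pigment epithelium, RPE65, DCT and TTR had 0 counts in each of the 5 libraries, whereas the transcription factors MITF (40.0 and 39.8 CPM in siCtrl and siFAM53C) and OTX2 were detected, and of the 7 markers tested 0 were called in edgeR (0 at an unadjusted p under 0.05). Of 4 markers of simple epithelium, the keratin KRT8 had 259 CPM in siCtrl and 323 CPM in siFAM53C, and KRT18 had 168 and 178 CPM. Of the 2 tested, 0 were called in edgeR, and at an unadjusted p under 0.05, 0 were lower and 1 higher. That gene was KRT8 (log2 fold change 0.32, SE 0.12, edgeR adjusted p = 0.222), with no overlap between conditions. CDH1 had 3 counts in siCtrl replicate 3 and EPCAM 4 counts in siCtrl replicate 1, with 0 in every other library. The libraries also split along an axis other than the condition: after the mean of each condition was taken off, the first principal component held 54.2% of the variance and placed siCtrl replicate 3 and siFAM53C replicate 2 on one side and the other 3 libraries on the other. Differences are therefore also given within these sides, which were defined from the data, with siFAM53C replicate 1 set against the first pair of siCtrl replicates and siFAM53C replicate 2 against siCtrl replicate 3, and are given in that order. Since the mean of each condition was taken off, the 2 siFAM53C libraries had to fall on opposite sides. Which siCtrl libraries fell with each of them came from the data. In the column names of the deposited counts, siFAM53C replicate 2 carries the number 3, as siCtrl replicate 3 does. What the column numbers mark is not stated, and the main fit does not use them. Of the 15341 genes that passed the filter on low counts, 3.47% were lower and 0.489% higher in siFAM53C at a Benjamini-Hochberg adjusted p under 0.05 (edgeR, quasi-likelihood, which gives each adjusted p below).

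Of the 9 genes, 7 passed the filter and 2 had no counts at all. ADGRL2 was 5.71-fold lower in siFAM53C than in siCtrl, and ADGRL4 was lower by 2.27-fold, whereas ADGRL1, FLRT2, TENM2, TENM3 and TENM4 did not pass the test. Leaving out ADGRL2, 1 of the 6 other genes tested was called lower (ADGRL4) and 0 were called higher in edgeR. At an unadjusted p under 0.05 the numbers were also 1 and 0, and so they were with DESeq2. Of all 15341 tested genes, 1607 were lower and 1014 higher at that unadjusted p in edgeR. The median log2 fold change of the 7 tested genes was -0.16, with 5 below 0 and 2 above, and that of all 15341 tested genes was 0.016.

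**Figure D1:**
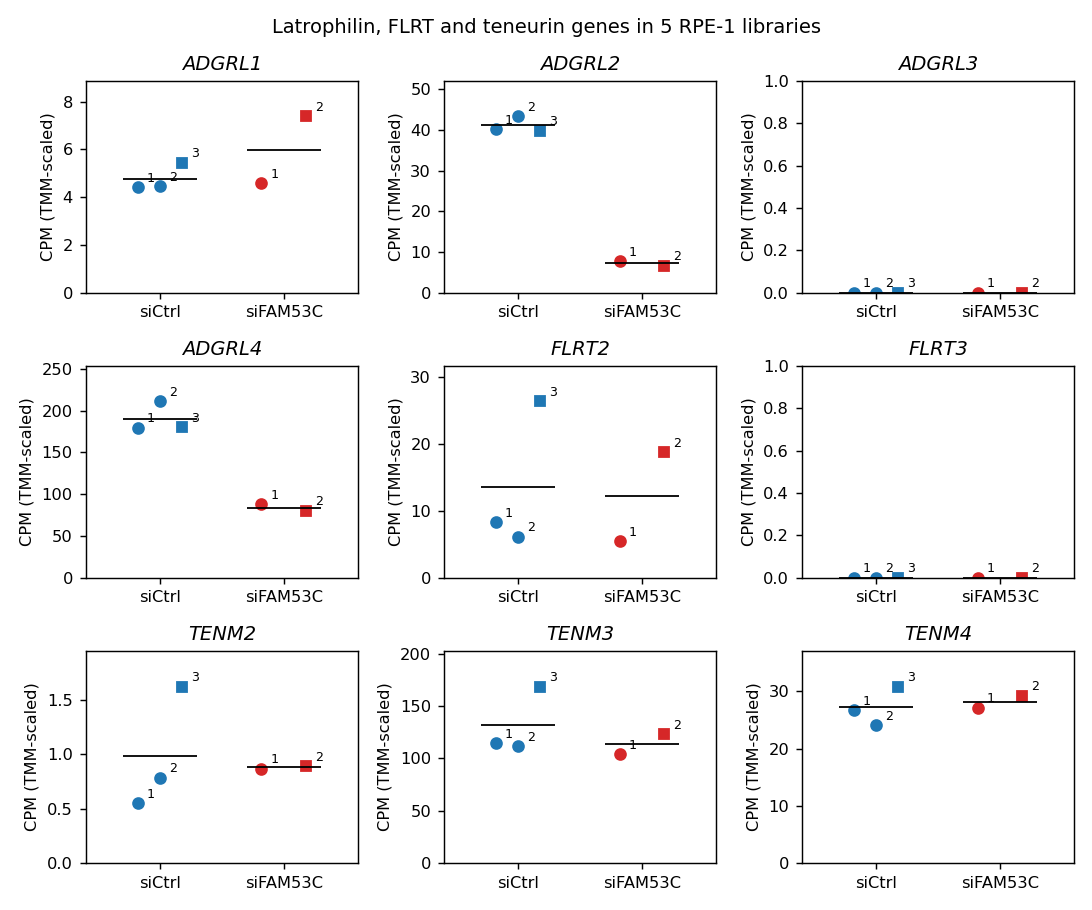
CPM of each of the 9 genes (vertical axes, TMM-scaled, starting at 0) in the 3 siCtrl and 2 siFAM53C libraries, with replicate numbers beside the points and a line at the mean of each condition. Circles and squares mark the sides of the library split. Both siFAM53C libraries lie below every siCtrl library for ADGRL2 and ADGRL4, whereas the squares lie high in both conditions for FLRT2, and ADGRL3 and FLRT3 are at 0.

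ADGRL2 encodes a latrophilin studied at synapses of the hippocampus. The gene (ENSG00000117114) lies on the plus strand of chromosome 1 of GRCh38, from 81306147 to 81993932. It had 946, 829 and 760 counts in siCtrl replicates 1, 2 and 3 and 205 and 156 counts in siFAM53C replicates 1 and 2. In CPM this was 40.2, 43.4 and 39.8 in siCtrl, and 7.75 and 6.62 in siFAM53C. The libraries of a condition lay close together, and the lowest siCtrl library was far above the highest siFAM53C library. The log2 fold change was -2.51 (SE 0.15), so that 17.5% of the siCtrl level was left. On either side of the library split it was -2.42 and -2.57. Ordered by log2 fold change, ADGRL2 was number 37 from the lowest of the 15341 tested genes.

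The annotation of ADGRL2 holds 24 protein-coding transcripts with a 3' UTR, and 17 of them hold the heptamer GACAAGA. The heptamer was searched because an earlier analysis of these same counts found genes with it in their 3' UTR to be lower in siFAM53C, so it is no independent evidence about any gene here. A heptamer is the length over which the seed of a small RNA, such as an siRNA, pairs with a 3' UTR, and the sequences of the siRNAs were not used here. The letters were searched on the transcript strand. In the longest annotated 3' UTR of each gene, ADGRL2 held 1 copy, and the other 8 genes held 0, also in each of their other protein-coding transcripts, although the longest 3' UTR of FLRT2 (30934 bases) is far longer than that of ADGRL2 (2790 bases). The ADGRL2 copy lies at chr1:81991585-81991591, and is printed in capitals with its flanks, 5′ to 3′, from chr1:81991575-81991601 on the plus strand of GRCh38, in GENCODE release 44. The lines after it hold the copies of 3 genes with a profile like that of ADGRL2, to show that the flanks differ.
ADGRL2: tactattcctGACAAGActtggaaaag
MAPK6: aatgcactaaGACAAGAacattctctc
SNX3: tttggcagttGACAAGAagttaatttg
LRRC58, first copy: aaaatggttaGACAAGAaaatagagct
LRRC58, second copy: cggaggctaaGACAAGAgaatcacttg

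MAPK6, SNX3 and LRRC58 are among the 5 whose log2 CPM followed that of ADGRL2 most closely over the 5 libraries, of 12331 genes with a symbol and a mean of at least 1 CPM. Likeness was measured as the root mean square difference after the mean of each gene was taken off. It was 0.089 for MAPK6 (the atypical MAP kinase ERK3), 0.12 for SNX3 (a sorting nexin of endosomes), 0.14 for GTF3A (transcription factor IIIA of RNA polymerase III) and 0.15 for LRRC58 (a leucine-rich repeat protein). The log2 fold changes of these 4 genes ran from -2.63 for MAPK6 to -2.28 for LRRC58. Genes picked by this likeness have falls near that of ADGRL2, so this range follows from the choice. MAPK6, SNX3 and LRRC58 hold the heptamer and GTF3A does not. The printed windows, with flanks, are at chr15:52065249-52065275 (MAPK6, plus strand), chr6:108211980-108212006 (SNX3, minus strand), and chr3:120331132-120331158 and chr3:120327844-120327870 (LRRC58, minus strand).

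Of 12083 tested genes with an annotated 3' UTR, FAM53C left out, 1402 (11.6%) held the heptamer in their longest 3' UTR. Their median log2 fold change was -0.18, against 0.020 for the 10681 genes without it. Of the genes with the heptamer 211 (15.05%) were called lower, and of those without it 312 (2.92%). The heptamer was picked on such a difference in these same counts, so this contrast restates that choice and is no test. ADGRL2, on whose fall the group was chosen, is among the genes with it. The 3' UTRs also differed in length, with medians of 3346.5 and 1388 bases. The part of the heptamer in the fall of ADGRL2 was not tested. Counts per gene do not tell transcripts with the site from the 7 protein-coding ADGRL2 transcripts without it.

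**Figure D2:**
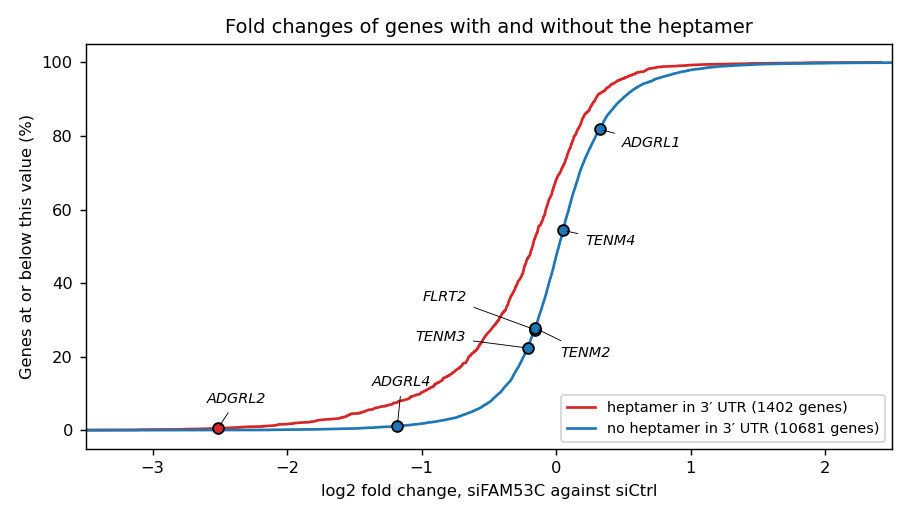
Share of genes at or below a given log2 fold change of siFAM53C against siCtrl (horizontal axis), for the 1402 genes with the heptamer in the longest 3' UTR (red) and the 10681 without it (blue), and the 7 tested latrophilin, FLRT and teneurin genes on the curve they belong to. ADGRL2 (-2.51) sits at the low end of the red curve, and ADGRL4 (-1.18) near the low end of the blue curve. The heptamer was picked from an earlier analysis of these same counts. The horizontal axis leaves out the few genes beyond its ends.

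ADGRL4 had the highest counts of the group in siCtrl, and TENM3 had them in siFAM53C. The gene (ENSG00000162618) lies on the minus strand of chromosome 1, from 78889764 to 79282124. It had 4234, 4034 and 3441 counts in siCtrl and 2323 and 1886 counts in siFAM53C. In CPM, the siCtrl libraries had 179.7, 211 and 180.3, and the siFAM53C libraries 87.8 and 80.0. The conditions did not overlap, and the lowest siCtrl library was above the highest siFAM53C library by more than the range within either condition. The log2 fold change was -1.18 (SE 0.12, 95% interval -1.46 to -0.90, edgeR adjusted p = 0.00236), so that 44.1% of the siCtrl level was left. Within the sides of the library split it was -1.15 and -1.17. ADGRL4 was also called lower by DESeq2 and in the fits that left out each library in turn. In the fits without a siFAM53C replicate, the lone siFAM53C library is assumed to vary like the siCtrl libraries. Its 6 protein-coding transcripts with a 3' UTR do not hold the heptamer.

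Because ADGRL4 is known from endothelium, 7 endothelial markers were examined beside it. CDH5, the cadherin of endothelial junctions, had 0 counts in each library, and the 7 markers together came to between 1.83 and 3.74 CPM in siCtrl and between 1.95 and 4.27 CPM in siFAM53C. The sums overlapped between conditions. Of these markers 2 passed the filter, PECAM1 and ROBO4, and 0 were called in edgeR (0 in either direction at an unadjusted p under 0.05). ROBO4 gave most of the sum, at 1.75 CPM in siCtrl and 1.71 in siFAM53C. PECAM1, an adhesion molecule of endothelium, had 20, 16 and 4 counts in siCtrl and 8 and 6 in siFAM53C, so the libraries overlapped. Its log2 fold change was -1.17 (SE 0.83, 95% interval -3.11 to 0.77, edgeR adjusted p = 0.548). For the side of siCtrl replicates 1 and 2 it was -1.25, and for the other side 0.20. KDR, TEK, CLDN5 and VWF had too few counts to pass the filter. Their mean CPM in siCtrl and siFAM53C was 0.215 and 0.427 (KDR), 0.144 and 0.234 (TEK), 0.123 and 0.347 (CLDN5), and 0.017 and 0.118 (VWF). The part of endothelial transcripts in the fall of ADGRL4 was not tested. Among 7 neuronal markers, ELAVL4 and STMN2 had 0 counts in each library, and the synaptic vesicle gene SYT1 had 36.9 CPM in siCtrl and 30.0 CPM in siFAM53C. The 7 together came to between 39.8 and 43.6 CPM in siCtrl and between 32.6 and 36.2 CPM in siFAM53C, and SYT1 gave most of these sums. Of these markers 3 passed the filter and 0 were called in edgeR (0 in either direction at an unadjusted p under 0.05). Their log2 fold changes were -0.30 for SYT1 (SE 0.13, edgeR adjusted p = 0.301), -0.32 for SNAP25 and 0.36 for GAP43. The part of neuronal transcripts in the latrophilin results was not tested.

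ADGRL4 and ADGRL2 are neighbours on the short arm of chromosome 1, with 2024 kb between them. This gap holds 16 annotated genes, of which 0 passed the filter on low counts, so they were adjacent among the genes measured in these cells. Within 1.5 Mb on either side of the pair, 13 other genes were tested. Of these, 3 were called lower and 0 higher in edgeR, where 3.47% of all tested genes were lower. The called genes were MIGA1, a gene of mitochondrial fusion (log2 fold change -2.06), ENSG00000219201, which lies within the span of MIGA1 on the opposite strand (-1.03), and ZZZ3 (-0.58). They lie on the ADGRL4 side of the gap, but so does every tested neighbour except ARID3BP1, which lies within the span of ADGRL2. Among the genes between MIGA1 and ADGRL4, IFI44L, an interferon-induced gene, had a log2 fold change of 0.43, and PTGFR, the prostaglandin F receptor gene, one of 0.74. DNAJB4 (0.60), NEXN-AS1 (0.19) and IFI44 (0.12) were also above 0, whereas NEXN (-0.38) and FUBP1 (-0.15) were below 0. None of these was past the threshold. The window and the genes named from it were chosen after their values were seen.

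ADGRL1, the first latrophilin to be found, as a receptor of the spider toxin alpha-latrotoxin, had few counts. The gene (ENSG00000072071, chromosome 19, 14147743 to 14206187, minus strand) had 104, 85 and 104 counts in siCtrl and 121 and 174 in siFAM53C. In CPM the siCtrl libraries had 4.41, 4.45 and 5.45, and the siFAM53C libraries 4.57 and 7.38. The conditions overlapped, since siFAM53C replicate 1 lay among the siCtrl libraries and only siFAM53C replicate 2 lay above them. The log2 fold change was 0.32 (SE 0.29, 95% interval -0.35 to 1.00, edgeR adjusted p = 0.652). Without siFAM53C replicate 2 it was -0.062. ADGRL1 shares 473 exon bases with ADGRL1-AS1 on the opposite strand, which had 1.40 CPM in siCtrl and 2.21 CPM in siFAM53C, and if the counting did not use strand, reads on those bases cannot be assigned to either.

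The balance between ADGRL2 and ADGRL1 can be read within a library, where it does not depend on how libraries are scaled. For each ADGRL1 count, siCtrl replicates 1, 2 and 3 held 9.10, 9.75 and 7.31 ADGRL2 counts. The siFAM53C replicates held 1.69 and 0.897. ADGRL2 thus gave 88.0% to 90.7% of the counts of these latrophilin genes in siCtrl, and 62.9% and 47.3% in the siFAM53C replicates, a description that uses the fall by which the group was chosen. ADGRL3, the remaining latrophilin of this type (ENSG00000150471, chromosome 4), had 0 counts in all 5 libraries. A count of 0 allows up to 3 counts in a library, which is 0.113 to 0.157 CPM here, counting error only.

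The ligand genes had no called difference. TENM3 encodes a teneurin best known from the wiring of the visual system and the hippocampus. The gene (ENSG00000218336, chromosome 4, 182143987 to 182803024, plus strand) had 2690, 2132 and 3218 counts in siCtrl and 2746 and 2897 in siFAM53C. In CPM the siCtrl libraries had 114, 112 and 169, and the siFAM53C libraries 104 and 123. The conditions overlapped, with siCtrl replicate 3 above the 4 other libraries. The log2 fold change was -0.21 (SE 0.20, 95% interval -0.67 to 0.24, edgeR adjusted p = 0.661), and 0.014 without siCtrl replicate 3. Within the sides it was -0.12 and -0.46. TENM3 shares 233 exon bases with genes on the opposite strand, among them TENM3-AS1, which had 14.8, 17.1 and 13.9 CPM in siCtrl and 24.3 and 17.0 CPM in siFAM53C (log2 fold change 0.44, SE 0.20, edgeR adjusted p = 0.315).

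TENM4 encodes a teneurin with a role in myelination. The gene (ENSG00000149256, chromosome 11, 78652829 to 79441030, minus strand) had 630, 460 and 589 counts in siCtrl and 719 and 690 in siFAM53C. In CPM the siCtrl libraries had 26.7, 24.1 and 30.9, and the siFAM53C libraries 27.2 and 29.3. Both siFAM53C libraries lay within the siCtrl range. The log2 fold change was 0.052 (SE 0.15, edgeR adjusted p = 0.907), with a 95% interval of -0.29 to 0.40, the narrowest among the genes that were not called.

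TENM2, a teneurin first described as a partner of latrophilin at synapses, was near the limit of detection. The gene (ENSG00000145934, chromosome 5, 166979029 to 168264157, plus strand) had 13, 15 and 31 counts in siCtrl and 23 and 21 in siFAM53C. The siFAM53C libraries lay between siCtrl replicates 2 and 3. The 95% interval of the log2 fold change (-0.16, SE 0.62, edgeR adjusted p = 0.937) ran from -1.59 to 1.27, which includes a change of the size seen in ADGRL4. Within the sides the difference was 0.36 and -0.81.

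FLRT2 differed more between the sides of the library split than between conditions. It encodes a membrane protein that both adheres to latrophilins and repels through UNC5 receptors. The gene (ENSG00000185070, chromosome 14, 85530144 to 85654428, plus strand) had 196, 117 and 504 counts in siCtrl and 146 and 444 in siFAM53C. In CPM the siCtrl libraries had 8.32, 6.12 and 26.4, and the siFAM53C libraries 5.52 and 18.8. The high libraries were siCtrl replicate 3 and siFAM53C replicate 2, which lie on the same side of the split, and the low ones were the other 3. The log2 fold change was -0.16 (SE 0.86, 95% interval -2.43 to 2.11, edgeR adjusted p = 0.956), and -0.37 and -0.48 within the sides. FLRT2 shares 736 exon bases with genes on the opposite strand. Of these, FLRT2-AS1 had from 6 to 10 counts in a library. FLRT3 (ENSG00000125848, chromosome 20) had 0 counts in all 5 libraries.

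**Figure D3:**
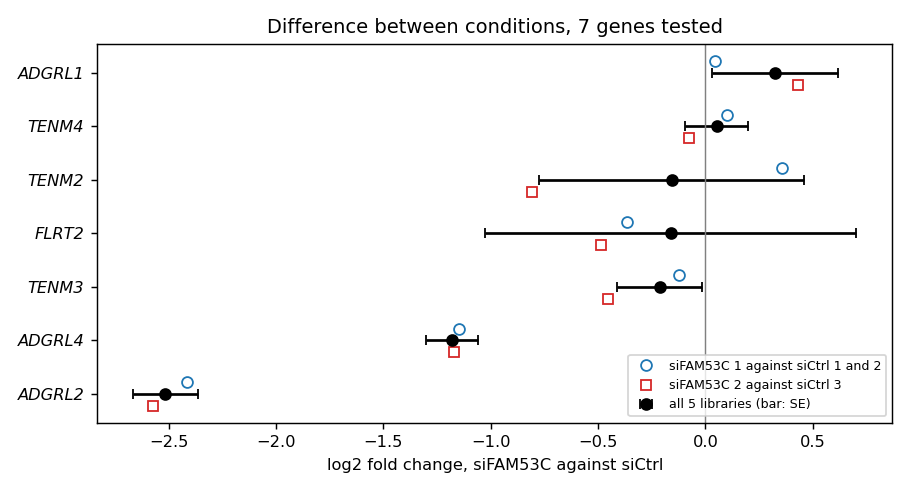
Log2 fold change of siFAM53C against siCtrl (horizontal axis) for the 7 genes tested, with all 5 libraries (black, bars are standard errors) and within each side of the library split (open symbols, no error since a side holds 1 siFAM53C library). ADGRL2 and ADGRL4 lie apart from 0 in each of the 3 values, whereas the values of TENM2 and TENM4 lie on both sides of 0.

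Levels were compared between genes per length of annotated exons, in CPM per kilobase. In siCtrl, ADGRL4 had the highest level per length (32.8 ± 3.10, SD, n = 3), followed by TENM3 (10.9 ± 2.68), ADGRL2 (1.70 ± 0.081), TENM4 (1.66 ± 0.21), ADGRL1 (0.562 ± 0.069), FLRT2 (0.357 ± 0.29) and TENM2 (0.046 ± 0.026). The siCtrl ranges overlapped between ADGRL2 and TENM4 and between ADGRL1 and FLRT2, so these neighbours in the order did not differ beyond their spread, and they did not overlap between the other neighbours. With the length of the longest transcript in place of all exon bases, the level of ADGRL2 in siCtrl was 4.69 and no longer overlapped with that of TENM4 (1.89). In siFAM53C the level of ADGRL2 was 0.297 ± 0.033 (SD, n = 2), which put it in place 6, below ADGRL1 (0.704 ± 0.23) and FLRT2 (0.320 ± 0.25, a range that overlaps with that of ADGRL2). The levels of TENM3 (9.44 ± 1.13) and TENM4 (1.72 ± 0.091) in siFAM53C put them in places 2 and 3. ADGRL4 came first in both conditions, at 14.5 ± 0.946 in siFAM53C.

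**Figure D4:**
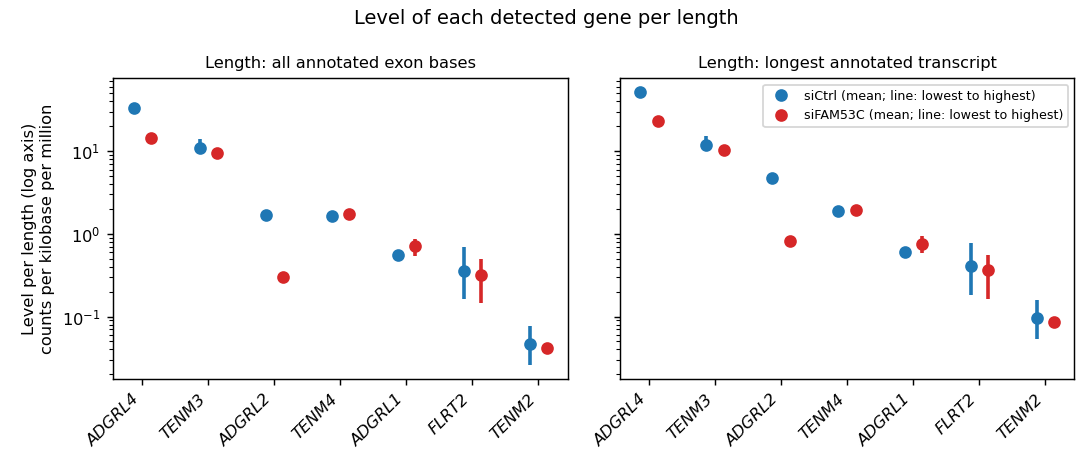
Level of the 7 detected genes in CPM per kilobase (log axis), for all annotated exon bases (left) and for the longest annotated transcript (right), with points at the mean and lines from the lowest to the highest library of siCtrl (blue) and siFAM53C (red). ADGRL4 is the highest gene in both panels and conditions, and ADGRL2 drops from place 3 to place 6 on the left and to place 4 on the right. ADGRL3 and FLRT3, at 0, cannot be drawn on a log axis.

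Other genes of the latrophilin pathway were examined as a list of 21: FLRT1 and TENM1, further ligands (among them NRXN2, NRXN3 and CNTN6), other receptors and partners of FLRTs (the UNC5 genes, FGFR1 and ROBO1), and intracellular partners (SHANK scaffolds, G proteins of the G12 class, their RhoGEFs and RHOA). Of these, 13 were tested and 3 (TENM1, CNTN6 and UNC5D) had no counts. In edgeR 0 were lower and 0 higher, as with DESeq2. At an unadjusted p under 0.05, 0 were lower and 1 was higher (SHANK2, with 14.1 CPM in siCtrl and 20.8 CPM in siFAM53C, named after its value was seen). Of all 15341 tested genes, 1607 were lower and 1014 higher at that unadjusted p in edgeR. The median log2 fold change of the 13 was -0.0060, with 7 genes below 0 and 6 above. The G protein genes through which latrophilins are known to act on RhoA were abundant in both conditions: GNA12 had 156 CPM in siCtrl and 153 in siFAM53C, and GNA13 102 and 89.1. The RhoGEF gene ARHGEF12 had 225 and 235 CPM, ARHGEF1 had 127 and 127 CPM, and ARHGEF11 had 66.1 and 65.6 CPM. RHOA, the small GTPase downstream, had 843 and 713 CPM (log2 fold change -0.24, SE 0.12, edgeR adjusted p = 0.346). FGFR1, a growth factor receptor that FLRTs bind, had 149.6 CPM in siCtrl and 146 in siFAM53C, and ROBO1, a guidance receptor, 67.6 and 70.3.

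The other adhesion G protein-coupled receptors were set beside the 4 ADGRL genes. Of 28 such genes, 12 were tested and 8 had no counts. In edgeR 0 were lower and 0 higher, and at an unadjusted p under 0.05, 2 were lower (CELSR1 and ADGRA3) and 0 higher. Of all 15341 tested genes, 1607 were lower and 1014 higher at that unadjusted p in edgeR. DESeq2 called 1 of the other adhesion receptors lower (CELSR1) and 0 higher. CELSR1, a cadherin-type receptor of planar cell polarity, had 110.4, 117 and 162 CPM in siCtrl and 68.8 and 88.2 CPM in siFAM53C, with no overlap between conditions (log2 fold change -0.72, SE 0.20, edgeR adjusted p = 0.105). ADGRA3 had 84.7 CPM in siCtrl and 68.1 in siFAM53C (log2 fold change -0.32, SE 0.10, edgeR adjusted p = 0.177). ADGRG6, which acts in myelination, had 49.4, 49.9 and 143 CPM in siCtrl and 53.7 and 128 CPM in siFAM53C, high in the same libraries as FLRT2. The log2 fold changes of ADGRG1, ADGRE5, CELSR2, ADGRB2 and CELSR3 ran from -0.18 for ADGRG1 to 0.45 for CELSR3, with 0 of them called. The median log2 fold change of the 12 was 0.086, with 5 below 0 and 7 above. Among all adhesion receptor genes tested, ADGRL2 and ADGRL4 had the lowest log2 fold changes, as a description of these libraries. The group was chosen on the fall of ADGRL2, so the place of ADGRL2 is no independent result.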

How the data were processed

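The data were RNA-seq reads of 5 RPE-1 libraries summed by gene. Per the authors, CutAdapt 2.10 removed adapters, HISAT2 placed reads on hg38 in reverse-stranded mode and featureCounts summed them; the deposited values are raw counts, neither normalized nor filtered. The annotation release and the strand setting of the counting are not given in the sources used here. Groups came from sample titles, and columns were matched by name. Symbols, positions and 3' UTRs came from GENCODE release 44 (56105 of 64252 identifiers matched).

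Conditions were compared by edgeR 4.0.16 under R 4.3.3 (filterByExpr with a minimum count of 10 and a minimum total of 15, TMM factors, condition only, robust quasi-likelihood test, Benjamini-Hochberg adjustment over all 15341 genes, threshold 0.05); standard errors were derived from its F statistic. A prior count of 2 was added for log2 CPM. Scripts were tested on simulated data. Genes named were the group, FAM53C, called genes and up to 8 of the most abundant of each list, and the 5 nearest to ADGRL2, of which 1 is not reported here. Members and lists were chosen with earlier results of these data known. Alternatives were DESeq2 1.42.0, other size factors, no filter, each library left out, replicate blocks and a term for the library side. Each pair of libraries of a condition differed by more than sampling noise (chi-square per gene from 9.20 to 42.9), so no library was a second deposit of another; this does not show that they came from separate cultures.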

Additional observations from a re-analysis of the deposited data

How the results depend on the processing

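The call of ADGRL4 as lower, and of 0 other genes of the group in either direction (ADGRL2 not counted), was the same in each of the 12 alternative fits, where the log2 fold change of ADGRL4 ran from -1.26 to -1.10 (adjusted p from 1.48e-14 to 0.0264 in edgeR and DESeq2). That of ADGRL2 ran from -2.64 to -2.41 over the fits and sides. The number of genes called over the whole table depended on the settings, for reasons that were not tested. As reported, 533 genes were lower and 75 higher, against 890 and 257 with DESeq2, 961 and 375 without a filter, 1636 and 1037 with a term for the library side, and 121 were higher with total counts only. Leaving out a library gave from 157 (without siFAM53C replicate 1) to 886 (without siCtrl replicate 3) lower and from 6 (without siCtrl replicate 2) to 414 (without siCtrl replicate 3) higher genes.

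With a replicate block by title number 856 were lower and 355 higher, and by the number in the column names 1350 and 642. Deviations of libraries with the same title number correlated at 0.17 and -0.28 for numbers 1 and 2. By column number the correlations were 0.17 and 0.37 in 2 pairs. The pair at 0.17 is the same by title and by column. The deviations of the 2 siFAM53C libraries mirror each other, since the mean of that condition was taken off. These correlations therefore cannot show whether a title or column number marks a pairing. The pair at 0.37 is siCtrl replicate 3 with siFAM53C replicate 2, whose column also carries the number 3. These libraries also make up a side of the library split, and whether the column number marks a shared culture is not stated. Under the block by title, FLRT2 (0.52), TENM2 (0.41) and TENM3 (0.00098) turned positive, and under that by column number TENM4 turned negative (-0.026). None was called. Under the block by column number FLRT2 was -0.54 (SE 0.17, edgeR adjusted p = 0.053) and TENM3 -0.30 (SE 0.099, edgeR adjusted p = 0.063), just short of the threshold. With the side term, which was defined from these data, TENM3 was -0.26 (SE 0.088, edgeR adjusted p = 0.052) and FLRT2 -0.44 (SE 0.17, edgeR adjusted p = 0.104).

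Other signs also turned without a call. TENM2 was 0.36 within the side of siCtrl replicates 1 and 2, and TENM4 was -0.075 within the other side. Over the fits that left out a library, ADGRL1 ran from -0.062 to 0.63, FLRT2 from -1.30 to 0.76, TENM2 from -0.45 to 0.41, TENM3 from -0.34 to 0.014 and TENM4 from -0.029 to 0.16. Of the pathway list, 1 gene was higher with the block by column number (SHANK2), and 1 was lower (RHOA) and 1 higher (SHANK2) with the side term. Of the other adhesion receptors, 1 was lower with DESeq2, 1 without a filter and 1 with the block by title (CELSR1 in each), and 2 (CELSR1 and ADGRA3) with the block by column number and with the side term; from 0 to 1 were lower over the fits that left out a library, CELSR1 without siCtrl replicate 3. TENM2 had 13 to 31 counts a library, and whether depth or variation between libraries set its wide interval was not tested. Fits without a siFAM53C replicate leave 1 library in that condition, assumed to vary like siCtrl.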
